A study of Mus musculus with 72 samples.

Results

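Cholesterol is made from acetyl-CoA through the mevalonate pathway. Hmgcs1, Idi1, Fdps, Fdft1, Sqle, Lss and Cyp51 encode enzymes of that pathway, from the cytosolic HMG-CoA synthase to the sterol 14-alpha demethylase, and Insig1 encodes an endoplasmic reticulum protein that retains the SCAP-SREBP complex when sterols are plentiful. All of them are known targets of the sterol regulatory element-binding proteins (SREBPs), the transcription factors that are released from that complex when sterols are low. Adipocytes hold a large store of free cholesterol beside their triglyceride, and brown adipocytes in addition burn fatty acids through the uncoupling protein Ucp1.

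These 8 genes were chosen by symbol, with no measured value in the rule. Of the 8, 7 had a named probe on the array and are described here, out of 12265 genes with a tested probe. Fdft1, squalene synthase, was not analysed here. The set holds no gene of cholesterol uptake, and uptake is therefore described from a separate list of 10 genes, of which 7 were measured.

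The data were 72 Illumina MouseRef-8 arrays of mouse adipose tissue, one array per tissue sample, in 17 labelled groups of 3 to 5. There were 56 arrays of interscapular brown adipose tissue (BAT) and 16 of perigonadal white adipose tissue (WAT). The genotypes compared were all on a C57BL/6J background. ATGLAKO mice lack the triglyceride lipase ATGL (gene Pnpla2) in adipose tissue, HSLAKO mice lack the hormone-sensitive lipase HSL (gene Lipe), and DAKO mice lack both. Control mice carried the Fabp4-Cre transgene without a floxed lipase gene, so every group expressed Cre. The Fabp4 promoter that drove Cre works in fat, and cells of the tissue in which it is silent keep the genes. BAT was taken from 5 control, 5 ATGLAKO, 4 HSLAKO and 5 DAKO mice at 3 months, from 4 mice of each genotype at 7 and at 12 months, and from 5 DAKO mice at 14 months, the late tumour stage. WAT was taken at 3 months from 3 control, 5 ATGLAKO, 4 HSLAKO and 4 DAKO mice. All mice had been fasted for some hours before the tissue was frozen.

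The labels did not match the marker genes on many arrays, and groups are therefore named below as they were labelled. Lipe signal was 9.31 to 9.95 on the control BAT arrays at 3 months, against 5.58 to 7.35 on HSLAKO and 5.55 to 8.95 on DAKO arrays of that age. On the control BAT arrays at 7 months, however, Lipe was only 6.56 to 7.03, and 3 of the 5 DAKO BAT arrays at 14 months had 9.18 to 9.44. Pnpla2 did not separate the genotypes: it was 12.91 to 13.31 on control, 11.18 to 13.31 on ATGLAKO and 10.02 to 14.04 on DAKO BAT arrays at 3 months. Whether these probes lie in the deleted parts of the genes is not known here. A signal of mesothelium, the lining that covers perigonadal but not interscapular fat, was present on 16 arrays, where the mean of 11 mesothelial markers was at least 6.18 against at most 5.52 on the other 56. Of those 16 arrays, 11 were labelled BAT, among them all 4 control BAT arrays at 7 months and all 4 at 12 months, and Ucp1 was 4.24 to 8.25 on them. The other 56 arrays fell into 43 with high Ucp1 (11.35 to 13.89) and 13 with low Ucp1 (4.26 to 7.79). Low Ucp1 without mesothelial signal was found on 12 arrays labelled BAT, all HSLAKO or DAKO at 7 months or later, and on 1 DAKO WAT array. All BAT arrays at 3 months had high Ucp1 and no mesothelial signal, so comparisons within that age mix no kinds of array. Among the 16 arrays labelled WAT, 10 had high Ucp1. These kinds of array were defined after the data were seen.

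Values are log2 signals after normalization, on which a difference of 1 is a 2-fold change. A gene was called changed at a Benjamini-Hochberg adjusted p under 0.01 in 1 limma fit over 18083 probes. Levels of different probes are not comparable with each other, since each probe has its own brightness.

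SREBPs bind sterol regulatory elements, and nearby CCAAT and GC boxes bind the cofactors NF-Y and Sp1 that they act with. The promoter sequences of 5 of the 8 members were available from RefSeq (mouse build GRCm38.p6). The 4 shown here are the bases just before the annotated start of Hmgcs1, Lss, Cyp51 and Insig1. Hmgcs1 is the first enzyme of the set. Lss and Cyp51 are adjacent steps of the pathway whose signals turned out uncorrelated on the BAT arrays with high Ucp1. All 4 are written 5′ to 3′ on the strand of the gene. Capitals mark the sterol regulatory element TCACCCCAC, the CCAAT box by its letters, the GC box GGGCGG and the E-box CACGTG, each searched on both strands. A reverse match reads ATTGG for the first box and CCGCCC for the second.
Hmgcs1, chr13:119690101-119690350, plus strand: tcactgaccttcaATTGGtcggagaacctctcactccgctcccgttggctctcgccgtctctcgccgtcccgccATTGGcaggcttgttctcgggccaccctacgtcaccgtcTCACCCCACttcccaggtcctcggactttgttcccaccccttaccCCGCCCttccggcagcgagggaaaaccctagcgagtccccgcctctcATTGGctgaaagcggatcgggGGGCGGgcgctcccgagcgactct
Lss, chr10:76531355-76531564, plus strand: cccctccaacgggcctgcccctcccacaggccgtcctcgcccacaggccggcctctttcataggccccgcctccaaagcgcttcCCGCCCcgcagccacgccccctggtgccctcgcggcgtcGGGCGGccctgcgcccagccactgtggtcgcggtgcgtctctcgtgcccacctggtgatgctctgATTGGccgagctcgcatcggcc
Cyp51, chr5:4104698-4104947, minus strand: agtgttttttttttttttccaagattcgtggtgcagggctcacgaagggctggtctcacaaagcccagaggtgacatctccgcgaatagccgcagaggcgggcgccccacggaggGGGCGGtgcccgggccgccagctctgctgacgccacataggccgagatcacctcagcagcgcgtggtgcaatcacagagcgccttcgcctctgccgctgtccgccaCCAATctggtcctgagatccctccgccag
Insig1, chr5:28071162-28071411, plus strand: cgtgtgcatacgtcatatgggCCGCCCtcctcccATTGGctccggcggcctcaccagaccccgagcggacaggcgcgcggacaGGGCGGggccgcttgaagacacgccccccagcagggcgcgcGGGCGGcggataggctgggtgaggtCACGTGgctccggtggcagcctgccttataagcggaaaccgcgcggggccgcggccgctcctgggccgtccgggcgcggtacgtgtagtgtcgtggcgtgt
The sterol regulatory element TCACCCCAC stood once, in Hmgcs1, from 137 to 129 bases before the start. It was found in 163 of the 32851 promoters in the table (0.496%), and the looser form TCACNCCAC, which also matched only that stretch among the members, in 1.05%. CCAAT and GGGCGG were each found in all 5 members, Idi1 included, against 33.8% and 32.7% of all promoters. The E-box CACGTG was found in Insig1, from 101 to 96 bases before the start, against 6.02% of all promoters. A match is a description of the letters and shows no binding, and a missing match says only that these letters are not in the window.

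Hmgcs1, which condenses acetyl-CoA with acetoacetyl-CoA into HMG-CoA, was measured by the probe ILMN_2654952 (gene at chr13:119690351-119708260) and was detected on all 72 arrays, with a signal from 10.51 to 12.99. On the control BAT arrays at 3 months it read 11.13, 12.19, 12.34, 12.26 and 12.53. The ATGLAKO arrays of that age read 12.12, 12.8, 12.04, 10.73 and 10.89, the HSLAKO arrays 11.79, 11.23, 11.84 and 11.81, and the DAKO arrays 11.96, 12.01, 11.47, 11.85 and 11.98. Control replicate 1 lay below the other 4 control arrays, and every knockout group overlapped the control. The highest group mean was 12.25 ± 0.37 (SD, n = 4) in HSLAKO BAT at 7 months and the lowest 11.08 ± 0.64 (SD, n = 4) in HSLAKO BAT at 12 months.

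Idi1, the isomerase that makes dimethylallyl pyrophosphate, was dim. Its probe ILMN_2590923 (gene at chr13:8885606-8892396) was above background on 30 of the 72 arrays, with signals from 4.3 to 5.67. It was not above background on any array labelled control WAT, HSLAKO BAT at 12 months or DAKO BAT at 14 months, which gives only an upper bound there. The control BAT arrays at 3 months read 5.26, 5.07, 4.87, 5.04 and 5.67, and 4 of the 5 were above background. That group had the highest mean, 5.18 ± 0.3 (SD, n = 5).

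Fdps, which makes farnesyl pyrophosphate, the branch point to sterols and prenylated proteins, was detected on all arrays (ILMN_1225730, gene at chr3:89093588-89101967, 8.27 to 11.6). The control BAT arrays at 3 months read 10.07, 10.45, 10.53, 10.14 and 10.75, again the highest group mean, 10.39 ± 0.28 (SD, n = 5). The ATGLAKO arrays of that age read 10.01, 10.13, 9.29, 9.2 and 9.28, so that 4 of the 5 lay below all control arrays and the array at 10.13 among them. The HSLAKO arrays read 9.66, 9.37, 10.22 and 10.07, and the DAKO arrays 10.72, 9.83, 9.77, 10.12 and 10.19.

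Sqle, squalene epoxidase, catalyses the first oxygenation of the sterol branch and is one of its rate-limiting steps. Its brighter probe ILMN_2737163 (gene at chr15:59315092-59331193) was detected on all arrays, from 6.52 to 10.47. At 3 months the control BAT arrays read 7.78, 7.86, 8, 7.8 and 8.52 and the ATGLAKO arrays 7.44, 7.77, 7.08, 6.52 and 6.56. On this probe all 5 ATGLAKO arrays were below all 5 control arrays, the nearest pair being 7.77 and 7.78. HSLAKO arrays read 7.45, 7.73, 9.04 and 7.49 and DAKO arrays 7.91, 7.47, 7.21, 8.79 and 7.32, each group with 1 array above the highest control. The older knockout groups were split. HSLAKO BAT at 7 months read 10.47, 9.17, 7.76 and 7.98, HSLAKO BAT at 12 months 9, 8.7, 7.03 and 8.39, and DAKO BAT at 7 months 7.58, 7.23, 10 and 8.96. DAKO BAT read 9.39, 9.09, 7.37 and 8.98 at 12 months and 7.86, 7.62, 7.89, 9.44 and 8.63 at 14 months. The higher arrays in each of these 5 groups were those with low Ucp1. The second tested probe of Sqle, ILMN_2600348, was dimmer and was detected on 56 arrays. On it the ATGLAKO and control BAT arrays at 3 months overlapped (ATGLAKO up to 5.85, control down to 4.81).

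Lss, lanosterol synthase, closes the squalene epoxide into the first sterol (ILMN_2614161, gene at chr10:76531565-76557139, 5.34 to 8.33). On the control BAT arrays at 3 months it read 6.97, 7.28, 7.48, 7.48 and 7.66, the highest group mean at 7.37. HSLAKO arrays of that age read 6.67, 6.09, 6.49 and 6.68 and did not overlap the control. ATGLAKO arrays read 6.94, 7.14, 5.37, 6.13 and 5.79 and DAKO arrays 7.3, 6.59, 6.05, 6.4 and 6.69. In both groups 1 array lay among the control arrays and the others below them. HSLAKO BAT at 12 months had the lowest mean, 5.78, with arrays at 5.41, 5.39, 6.53 and 5.78.

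Cyp51, the lanosterol demethylase, acts next on that product (ILMN_2688075, gene at chr5:4080674-4104697, 5.77 to 8.44). Control BAT arrays at 3 months read 7.37, 6.91, 7.05, 6.86 and 7.05, and ATGLAKO arrays 6.4, 6.82, 6.65, 6.35 and 6.49, with no overlap. HSLAKO arrays read 6.21, 6.51, 7.38 and 6.44 and DAKO arrays 6.68, 6.45, 6.35, 7.29 and 6.63. The array that was high for Sqle in each of these 2 groups was also the high one for Cyp51. ATGLAKO WAT had the highest group mean, 7.45, with arrays at 7.74, 7.78, 7.63, 7.54 and 6.58, and the 4 high ones were those with mesothelial signal.

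Insig1, the sterol-dependent brake on SREBP processing, varied most. It had 3 tested probes, and the brightest (ILMN_2895388, gene at chr5:28071412-28078662) ran from 5.44 to 9.41. One further probe was above background on 0 arrays. Control BAT read 8.23, 8.39, 8.76, 8.56 and 8.93 at 3 months, 7.38, 7.01, 6.37 and 6.32 at 7 months and 6.04, 7.48, 5.44 and 6.56 at 12 months. On this probe the 7- and 12-month arrays, all with mesothelial signal, lay below every 3-month array. On the other tested probes they overlapped. ILMN_1245272 read 8.44 on 7-month replicate 1 and 8.5 on 12-month replicate 2, against 7.84 to 8.68 at 3 months. ATGLAKO BAT at 3 months read 8.73, 9.34, 8.44, 7.94 and 7.64, HSLAKO 8.28, 7.59, 7.07 and 8.36, and DAKO 8.75, 8.13, 6.91, 7.46 and 8.09. Within ATGLAKO BAT at 7 months the arrays read 6.2, 6.16, 9.07 and 9.41, the 2 low ones again being those with mesothelial signal.

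**Figure D1:**
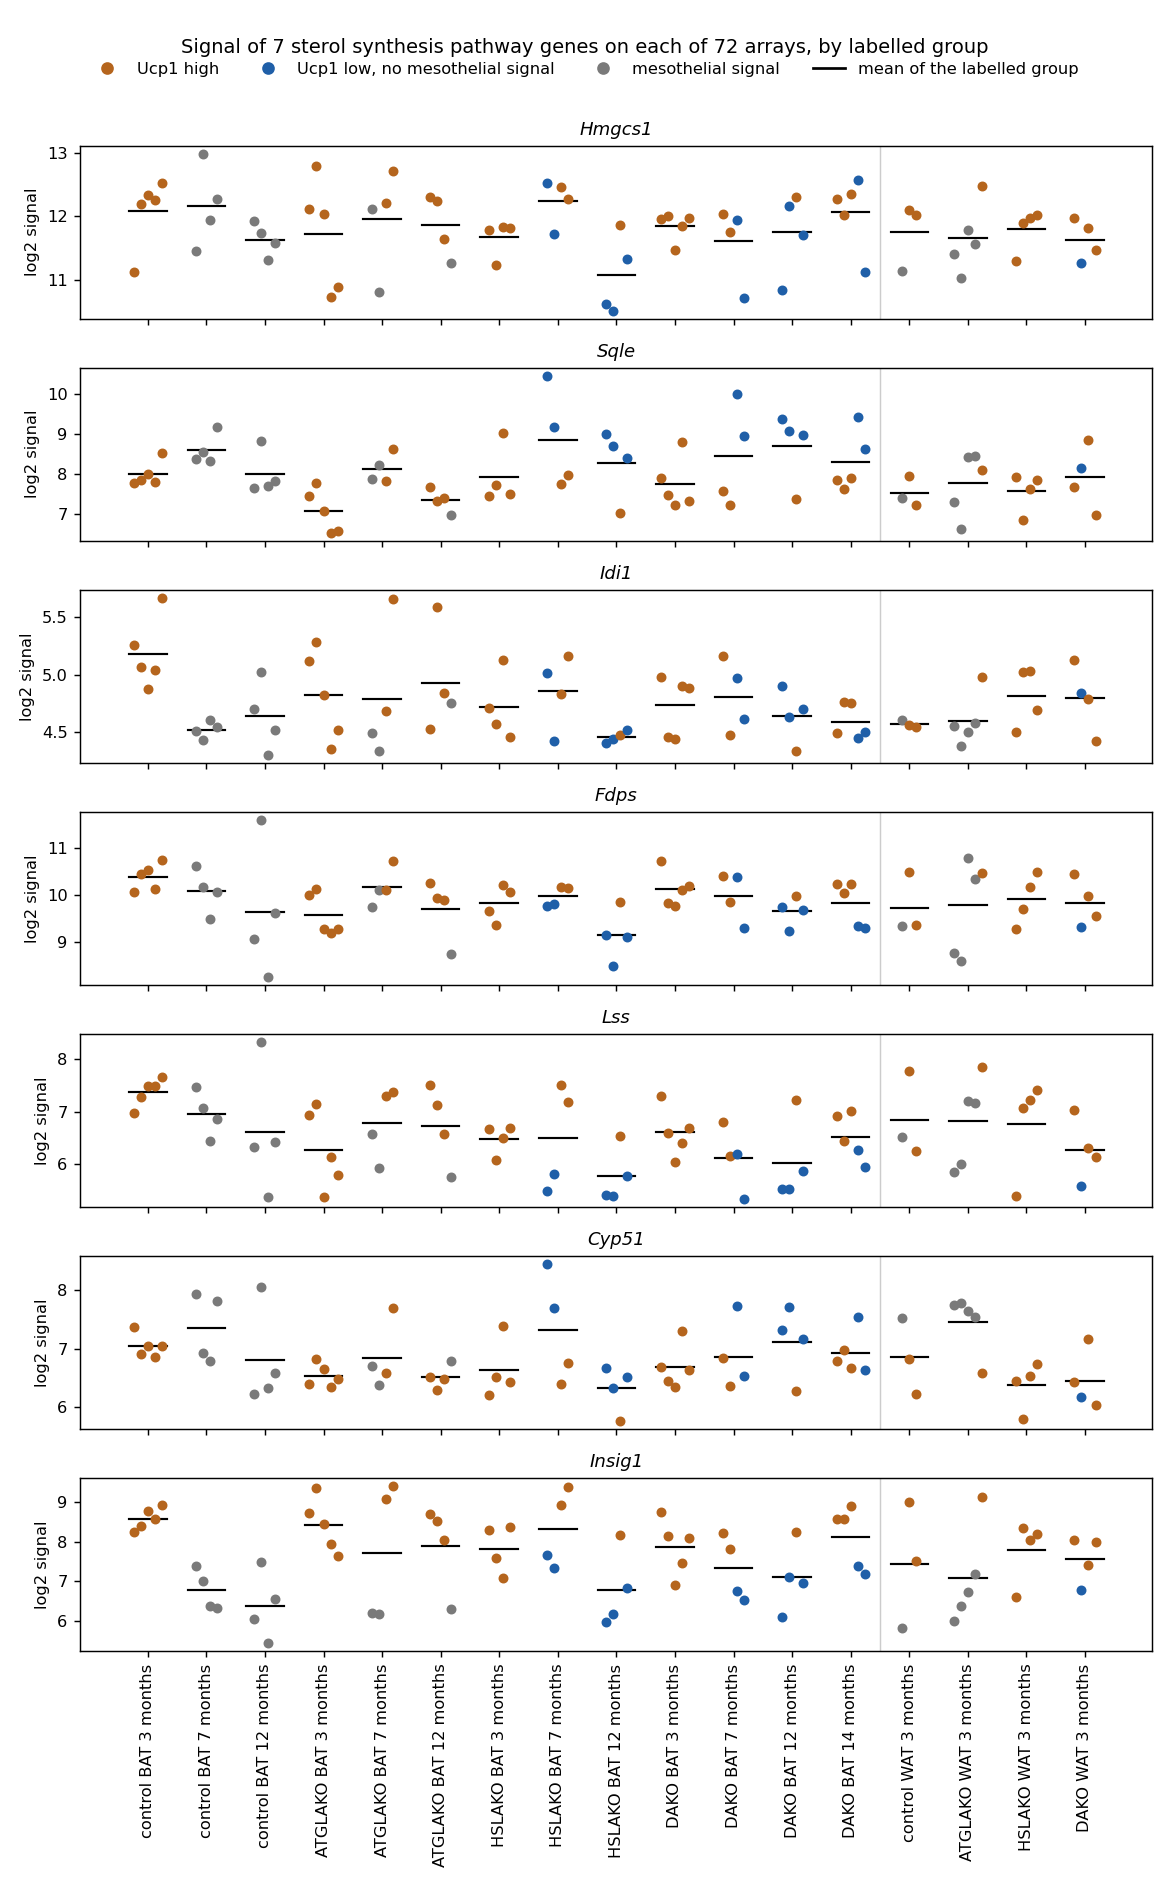
Log2 signal of the 7 measured genes (one panel each, y axis) on every array, by labelled group (x axis), with points coloured by the kind of array and a bar at the group mean. Sqle is high and Insig1 and Lss are low on the arrays with low Ucp1. Insig1 is also low on the BAT arrays with mesothelial signal. On its brightest probe, shown here, Insig1 falls from 8.23 to 8.93 on the 3-month control BAT arrays to 5.44 to 7.48 on those labelled 12 months.

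The spread within labelled groups was wide for most of these genes. The pooled within-group SD was 0.93 for Insig1, 0.73 for Sqle, 0.71 for Lss, 0.61 for Fdps, 0.55 for Hmgcs1, 0.52 for Cyp51 and 0.3 for Idi1, against a median of 0.37 over all genes. Labelled groups accounted for at most 35.8% of a gene's variance (Insig1), and the median over all genes was 35.6%. When the 17 group means of each gene were put in order, 0 of the 16 neighbouring pairs had arrays that did not overlap, for each of the 7 genes. Neighbours in such an order have close means by construction, so this overlap shows nothing particular to these genes.

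The first question was whether loss of either lipase or of both changed these genes in BAT at 3 months, before the age of tumours. On their brightest tested probes all 7 genes had a lower mean in each knockout than in the control, but 0 of 7 passed the test in any of the 3 comparisons. Of all probes, 0.282% were called in ATGLAKO, 2.54% in HSLAKO and 1.23% in DAKO. The median log2 difference over the 7 was -0.51 in ATGLAKO, -0.46 in HSLAKO and -0.37 in DAKO, beside -0.01, -0.03 and -0.04 over all probes, of which 52.2%, 54.2% and 55.4% were lower. The 3 comparisons share the same 5 control arrays, so their like directions are not separate observations. Nor are the 7 genes, many of which correlated with each other from array to array.

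Lss had the lowest estimates when each gene was read from its brightest tested probe. It differed by -1.10 (SE 0.44, 95% interval -1.98 to -0.22, limma adjusted p = 0.202) in ATGLAKO, by -0.89 (SE 0.47, interval -1.82 to 0.04, adjusted p = 0.207) in HSLAKO and by -0.77 (SE 0.44, interval -1.65 to 0.11, adjusted p = 0.305) in DAKO. In ATGLAKO, Sqle differed by -0.92 (SE 0.45, interval -1.82 to -0.01, limma adjusted p = 0.317) and Fdps by -0.81 (SE 0.38, interval -1.56 to -0.05, adjusted p = 0.284). Sqle was close to the control in HSLAKO (-0.07) and DAKO (-0.25). The second probe of Sqle gave -0.2 (SE 0.41, limma adjusted p = 0.883) in ATGLAKO, 0.08 in HSLAKO and -0.14 in DAKO. Insig1 showed -0.16, -0.75 and -0.71 in the 3 knockouts, Cyp51 -0.51, -0.41 and -0.37, and Hmgcs1 -0.37, -0.42 and -0.24. The other tested probes of Insig1 gave -1.14 and -1.06 in HSLAKO and -1.07 and -1.05 in DAKO, lower than Lss. In ATGLAKO they gave -0.07 and -0.11, and none of these was called. Idi1 differed by -0.46 (SE 0.20, limma adjusted p = 0.129) in HSLAKO and by -0.45 (SE 0.19, adjusted p = 0.153) in DAKO, between signals near background. Counting arrays, 2 genes in ATGLAKO (Sqle and Cyp51), 1 in HSLAKO (Lss) and 0 in DAKO did not overlap the control. For Sqle this held on the brighter probe only. Of all probes, 7.79%, 25.3% and 15.7% did not overlap.

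Markers of other cells moved in the same comparisons. The mean of 9 macrophage markers of the 12 listed was 6.75 to 7.20 on the control arrays, 7.14 to 10.02 on ATGLAKO, 9.21 to 11.65 on HSLAKO and 9.46 to 11.49 on DAKO arrays. The mean of 7 general adipocyte markers of the 8 listed was 10.29 to 10.44 on the control arrays and 9.42 to 10.19 over the 3 knockouts, with no overlap, and the mean of 7 brown adipocyte markers was 11 to 11.2 against 8.73 to 10.93. The mean of 9 skeletal muscle markers was 8.78 to 10.08 on the control arrays and 10.84 to 12.63 on ATGLAKO arrays. On HSLAKO and DAKO arrays it was 9.93 to 12.81 and 9.81 to 12.93. That of 4 proliferation markers was 4.37 to 4.86 on control and 4.57 to 5.36 on ATGLAKO arrays. On HSLAKO and DAKO arrays it was 5.65 to 6.86 and 5.66 to 7.02. The part of these shifts in the values of the sterol genes was not tested. In whole tissue, fewer cells of a type and less RNA per cell cannot be told apart.

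**Figure D2:**
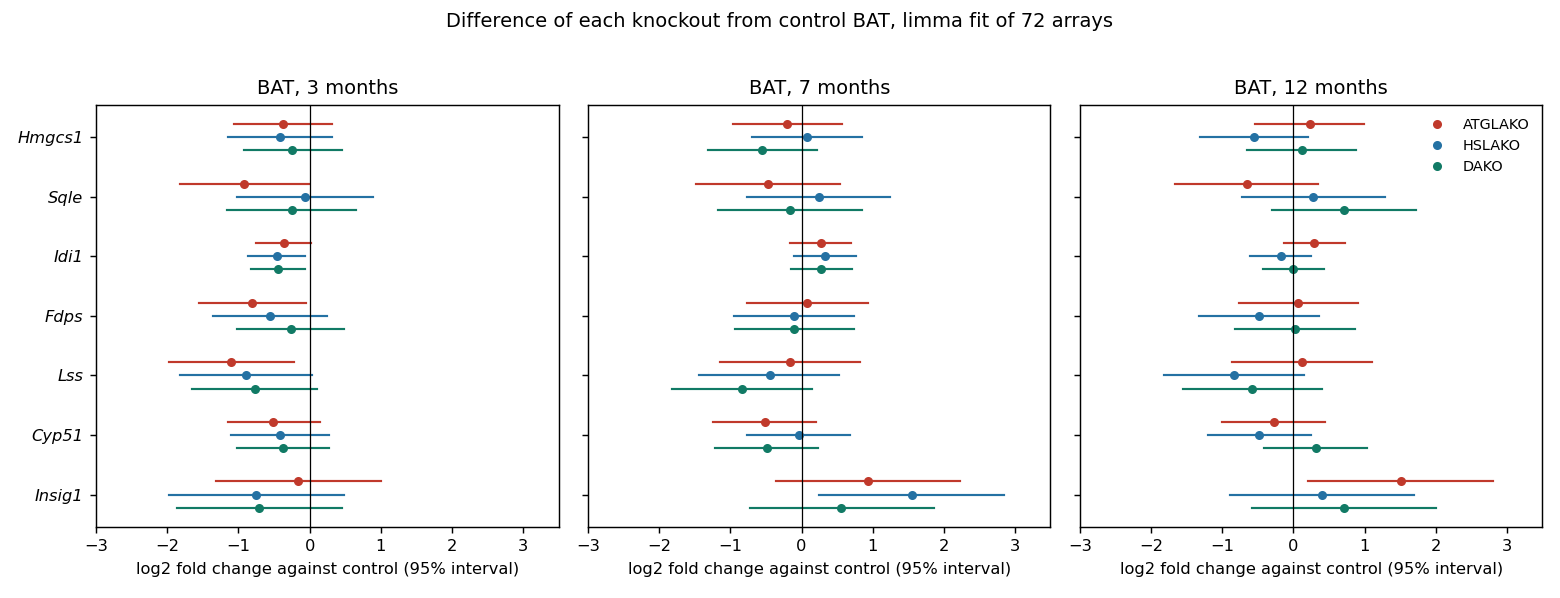
Log2 difference of each knockout from the control of the same age in BAT (x axis) for the 7 genes (y axis), with 95% intervals from the limma fit. At 3 months all 21 estimates, each from the gene's brightest probe, are below 0, from -1.10 to -0.07. Most intervals include 0 and none passed the test. At 7 and 12 months the control arrays carry mesothelial signal.

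The double knockout was also set against the sum of both single knockouts at 3 months. On the brightest probes the departure from additivity was above 0 for 7 of 7 genes, with a median of 0.56. The DAKO means were thus less low than the sum of the ATGLAKO and HSLAKO differences. None was called, beside 0.0111% of all probes, and the highest estimates were those of Lss, 1.22 (SE 0.64, 95% interval -0.06 to 2.50, limma adjusted p = 0.780), and Fdps, 1.10 (SE 0.55, interval 0 to 2.20, adjusted p = 0.772). This value subtracts both single knockouts and adds the control, which had the highest mean at that age for 7 of 7 genes on those probes. It therefore rests on the same arrays as the comparisons above. Against either single knockout at 3 months, DAKO called 0 of 7 (0.00553% of probes against ATGLAKO and 0.00% against HSLAKO).

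At 7 and 12 months the same comparisons set knockout BAT against control arrays that all carried mesothelial signal and low Ucp1, so genotype and this difference in tissue cannot be told apart. No member was called. The share of all probes called was 0.00% for ATGLAKO, 1.62% for HSLAKO and 1.56% for DAKO at 7 months, and 0.575%, 8.78% and 7.20% at 12 months. Estimates went both ways, with medians over the 7 genes of -0.16, 0.08 and -0.16 at 7 months and 0.12, -0.48 and 0.12 at 12 months. The highest were those of Insig1, 1.55 (SE 0.65, limma adjusted p = 0.137) in HSLAKO at 7 months and 1.51 (SE 0.65, adjusted p = 0.165) in ATGLAKO at 12 months. The second probe of Insig1 gave 0.26 and 0.97 for these. Whether the effect of a knockout differed between ages or tissues was tested in 63 contrasts of single genes, of which 8 had an unadjusted p under 0.05 and 0 were called by limma.

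Between knockouts at the later ages, DAKO called 0 members against ATGLAKO at 7 (0.00% of probes) and 12 months (0.00%), and against HSLAKO at 7 (0.00553%) and 12 months (0.00%). Sqle was higher in DAKO than in ATGLAKO BAT at 12 months by an estimated 1.37 (SE 0.50, 95% interval 0.36 to 2.38, limma adjusted p = 0.0908). ATGLAKO arrays read 7.66, 7.32, 7.4 and 6.97, below the 3 DAKO arrays with low Ucp1 (9.39, 9.09 and 8.98) and level with the 1 DAKO array with high Ucp1 (7.37). With arrays of high Ucp1 alone the difference was -0.09, which rests on that 1 DAKO array. DAKO exceeded HSLAKO at 12 months for 7 of 7 genes, with a median of 0.43, and Cyp51 by 0.79 (SE 0.36, limma adjusted p = 1.00).

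BAT of DAKO mice at 14 months, the late tumour stage, did not differ from DAKO BAT at 12 or 3 months in any member by the test (0.00% of probes called in both). Estimates against 12 months ranged from -0.42 for Sqle to 1.02 for Insig1, and both groups mix arrays of high and low Ucp1. Insig1 at 14 months read 8.56, 8.57, 8.91, 7.39 and 7.18, the last 2 being the arrays with low Ucp1, and Hmgcs1 12.28, 12.02, 12.36, 12.57 and 11.12.

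In WAT at 3 months, 0 members were called in ATGLAKO, HSLAKO or DAKO against control (0.00% of probes in each), and the median difference was 0.03, 0.05 and 0.09. Between the tissues, all 7 genes had a higher mean in control BAT than in control WAT, with a median of 0.53, beside 0.0553% of probes called. Idi1 was not above background on the control WAT arrays. Of these, replicates 2 and 3 had high Ucp1 (13.6 and 13.29), and replicate 1 had mesothelial signal with Ucp1 of 4.99. The contrast of control BAT with control WAT therefore mixes kinds of array, as do those between knockout and control WAT. In ATGLAKO, where 0.514% of probes were called, Cyp51 was lower in BAT than in WAT by an estimated -0.91 (SE 0.32, limma adjusted p = 0.0816) and Insig1 higher by 1.34 (SE 0.58, adjusted p = 0.154). Of the 5 ATGLAKO WAT arrays, 4 had mesothelial signal. Without them the estimates were -0.04 for Cyp51 and -0.70 for Insig1, both set against the 1 WAT array left. HSLAKO and DAKO tissues called 0 members (0.00% of probes in both).

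One member passed the test in 1 of the 29 comparisons. Insig1 was lower in control BAT labelled 12 months than in control BAT at 3 months by 2.19 on the log2 scale (estimate -2.19, SE 0.61, limma adjusted p = 0.00576), and the 4 arrays (5.44 to 7.48) lay below the 5 (8.23 to 8.93). In that comparison 15.8% of all probes were called, so 1 of 7 members is near the background. Ucp1 was 4.33 to 4.69 on the 12-month arrays against 13.61 to 13.82 at 3 months, and the mean of 11 mesothelial markers 6.18 to 7.82 against 4.43 to 5.02. Age and this difference in tissue coincide on every array and cannot be told apart. The other tested probes of Insig1 gave -1.64 (limma adjusted p = 0.0507) and -1.71 (adjusted p = 0.0638). On both of these probes the 12- and 3-month arrays overlapped. Idi1 followed with -0.55 (SE 0.20, adjusted p = 0.0366). In fits without 1 array the adjusted p of Insig1 rose to as much as 0.0358. The same ages in ATGLAKO, HSLAKO and DAKO BAT called 0 members (0.00% of probes in each), and the estimate for Sqle in DAKO was 0.97 (SE 0.48, limma adjusted p = 0.309), which became -0.37 with arrays of high Ucp1 alone, of which the 12-month group holds 1.

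Other genes of sterol metabolism were read from fixed lists. Of 15 further enzymes of sterol synthesis, 10 were measured, and their median difference from control at 3 months was -0.30, -0.17 and -0.16 in ATGLAKO, HSLAKO and DAKO. One was called there, Lbr, a sterol reductase of the inner nuclear membrane, which rose by 0.99 (SE 0.23, limma adjusted p = 0.00572) in HSLAKO, where 2.54% of all probes were called. At 12 months Sc5d, the lathosterol oxidase, was lower in HSLAKO by 1.76 on the log2 scale (estimate -1.76, SE 0.49, adjusted p = 0.00831), 1 of 10 where 8.78% of probes were called. In control BAT, Lbr was higher at 12 than at 3 months by 1.2 (adjusted p = 0.000174), 1 of 10 where 15.8% were called. Of the 5 measured genes of SREBP control, 1 was called in any comparison: Scap, the sterol sensor that escorts SREBPs, at -0.90 (SE 0.17, adjusted p = 0.000142) in control BAT at 12 against 3 months, again with 15.8% of probes called. These 12-month counts are near the background.

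The 7 measured genes of uptake and intracellular transport (Mylip, Vldlr, Lrp1, Scarb1, Lipa, Npc2 and Stard4) gave 0 calls in all 29 comparisons, with medians of -0.02, 0.16 and 0.08 in the 3 knockouts at 3 months. Among 4 measured genes of efflux and LXR signalling, the medians were 0.97, 1.57 and 1.10 at 3 months with 0 calls. At 12 months Nr1h3, which encodes the oxysterol receptor LXR-alpha, was lower in HSLAKO by 2.27 on the log2 scale (estimate -2.27, SE 0.48, limma adjusted p = 0.000567), and Apoe was higher by 2.63 (SE 0.67, adjusted p = 0.00276) in control BAT at 12 against 3 months. Each was 1 of the 4, beside 8.78% and 15.8% of all probes. Apoe is also abundant in macrophages. The mean of the macrophage markers was 8.85 to 10.61 on the control BAT arrays at 12 months and 6.75 to 7.20 at 3 months. Mesothelial signal, Ucp1 and age differed between these arrays as well, and the part of each in the Apoe value was not tested.

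Fatty acid synthesis, which SREBP-1c controls, had medians over 10 measured genes at 3 months of -0.62, -1.03 and -0.65. One gene was called, Elovl5, an elongase of polyunsaturated fatty acids, at -0.68 (SE 0.15, limma adjusted p = 0.00553) in DAKO, 1 of 10 where 1.23% of all probes were called. It was also lower at 12 months in HSLAKO (-1.09) and in DAKO (-0.82, adjusted p = 0.000727), where 8.78% and 7.20% of probes were called. Acsl3, an acyl-CoA synthetase, was at -1.64 in control BAT at 12 against 3 months, beside 15.8%.

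The second question was whether the genes moved together from array to array once the labelled group was taken out. Each value was centred on its group mean and pairs were correlated, with p from permutation within groups and adjusted over the 21 pairs. Because the arrays fall into separate kinds, the 31 BAT arrays with high Ucp1, from 9 groups, come first. They are those of the 33 such arrays whose labelled group held another one. Within a kind, values were centred on the mean of the group's arrays of that kind alone. There, 20 of 21 pairs had r above 0, with a median of 0.57. Over all 75208980 gene pairs the median r was 0 and the median absolute r 0.2. By permutation, 13 of the 21 had an adjusted p under 0.05, all with r above 0. Ranked by r among 12264 genes, the nearest other member stood at 2 for Fdps, 3 for Cyp51, 5 for Sqle and 9 for Idi1. It stood at 77 for Lss, 198 for Hmgcs1 and 284 for Insig1, so many genes outside the set followed these more closely.

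The strongest pair was Fdps with Lss (r = 0.79, permutation adjusted p = 0.000840, Spearman's rho = 0.77, adjusted p = 0.000840), unchanged at 0.79 without the 2 farthest arrays. Sqle and Cyp51 followed (r = 0.78, permutation adjusted p = 0.00280, rho = 0.71, adjusted p = 0.00248, and r = 0.71 without 2 arrays). Lss and Insig1 had r = 0.72 (permutation adjusted p = 0.00277, rho = 0.76, adjusted p = 0.000840, r = 0.79 without 2 arrays). Hmgcs1 correlated with Fdps (r = 0.69, permutation adjusted p = 0.00277, rho = 0.69, adjusted p = 0.00248, r = 0.66 without 2) and with Insig1 (r = 0.69, adjusted p = 0.00115, rho = 0.67, adjusted p = 0.00105, r = 0.63 without 2). The other 8 pairs that passed had r from 0.49 (Hmgcs1 with Idi1) to 0.66 (Sqle with Fdps).

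Of the 8 pairs that did not pass, 5 crossed between Hmgcs1, Lss and Insig1 on one side and Sqle and Cyp51 on the other. These sides were drawn from the same r values on these arrays, so the count is only a description. The single crossing pair that passed was Hmgcs1 with Sqle (r = 0.54, permutation adjusted p = 0.0119, rho = 0.58, adjusted p = 0.00889, r = 0.45 without 2 arrays). Sqle and Lss, which act one after the other, had r = 0.36 (permutation adjusted p = 0.134, rho = 0.44, adjusted p = 0.0517, r = 0.41 without 2 arrays). Lss and Cyp51, also consecutive, had r = 0.01 (permutation adjusted p = 0.971, rho = -0.00, adjusted p = 0.998, r = 0.03 without 2). Cyp51 and Insig1 had r = -0.07 (permutation adjusted p = 0.812, rho = 0.00, adjusted p = 0.998, r = 0.08 without 2). Fdps passed with 5 of the other 6 genes and reached 0.43 with Cyp51 (permutation adjusted p = 0.101, rho = 0.44, adjusted p = 0.0743, r = 0.42 without 2).

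**Figure D3:**
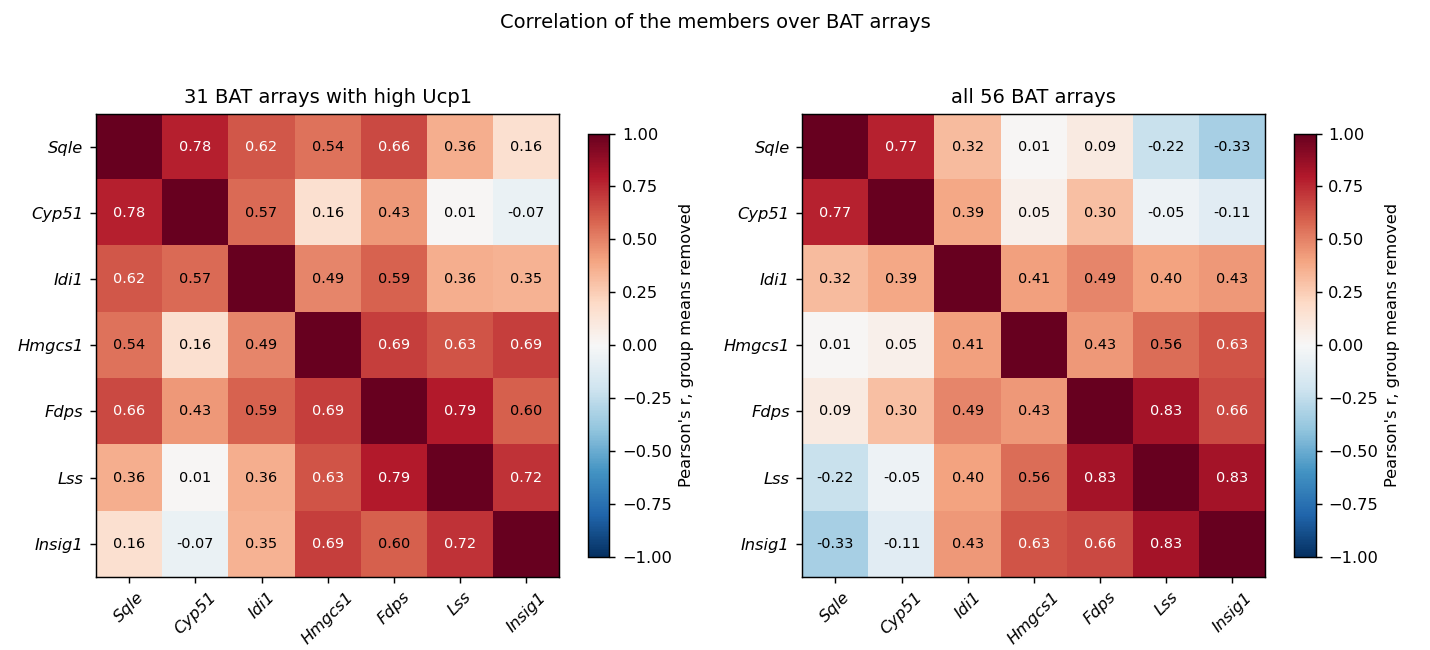
Pearson's r of each pair of genes after removal of the labelled group means, on the 31 BAT arrays with high Ucp1 (left) and on all 56 BAT arrays (right), from blue (negative) to red (positive). Sqle with Cyp51 is 0.78 and 0.77, and Lss with Insig1 is 0.72 and 0.83, while Sqle with Insig1 is 0.16 on the left and -0.33 on the right.

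Over all 56 BAT arrays, which mix the kinds, 14 of 21 pairs passed and the median r was 0.40. Fdps with Lss and Lss with Insig1 both had r = 0.83, and Sqle with Cyp51 had 0.77. The single negative pair that passed was Sqle with Insig1 (r = -0.33, permutation adjusted p = 0.0347, rho = -0.32, adjusted p = 0.0559, r = -0.30 without 2 arrays). It did not hold within the kinds: r was 0.16 with high Ucp1, -0.04 on the 12 arrays with low Ucp1 and 0.47 on 10 arrays with mesothelial signal. On the 12 arrays with low Ucp1, 0 of 21 pairs passed although 19 had r above 0 (median 0.45), and on the 10 with mesothelial signal 3 passed (median 0.65). In the 16 WAT arrays 5 of 21 pairs passed, led by Fdps with Lss (r = 0.89, permutation adjusted p = 0.00357) and Hmgcs1 with Insig1 (r = 0.87, adjusted p = 0.00730), while Sqle with Cyp51 had r = 0.24 there. The sides named above were not apart in every set of arrays. Lss with Cyp51 had r = 0.85 on BAT arrays with mesothelial signal, 0.45 on those with low Ucp1 and -0.19 in WAT. Hmgcs1 with Cyp51 had r = -0.09, 0.82 and -0.47 in the same order. None of these passed.

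**Figure D4:**
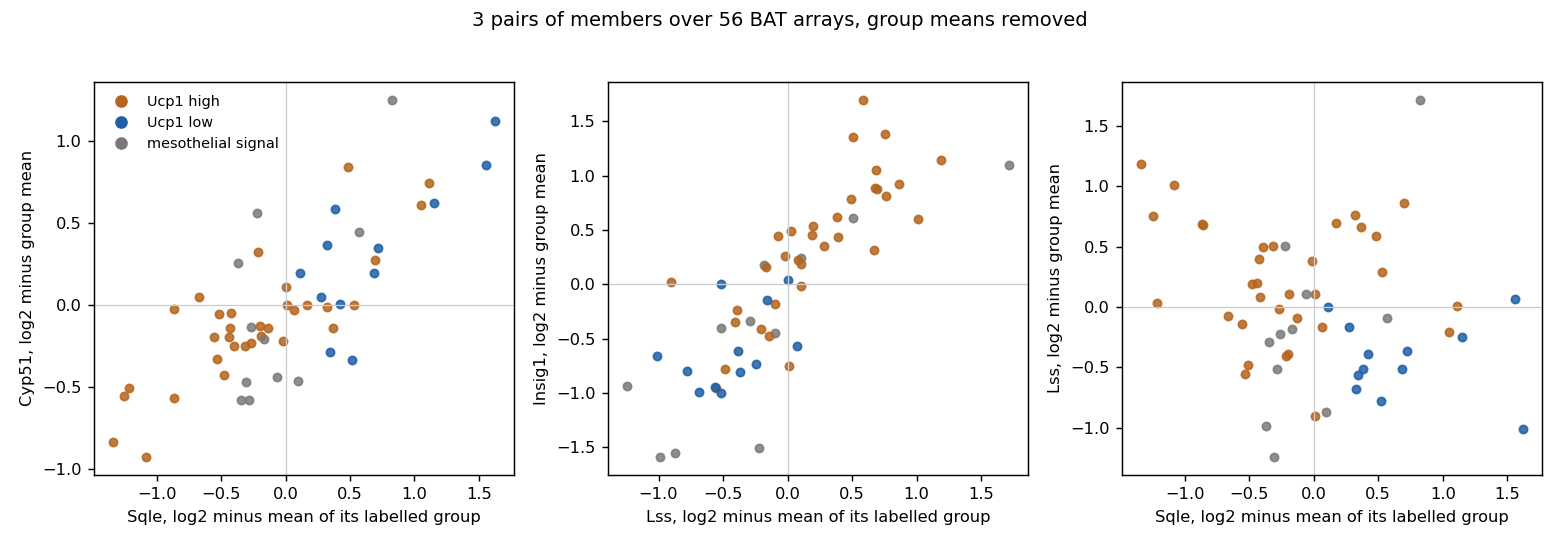
Signals of 3 pairs of genes on each of the 56 BAT arrays, as log2 minus the mean of the labelled group (both axes), coloured by the kind of array. Cyp51 goes with Sqle and Insig1 with Lss within the 31 arrays of high Ucp1 (r = 0.78 and 0.72), whereas Sqle and Lss have r = 0.36 there. These r were computed after centring on the high-Ucp1 arrays of each group alone, and the points are centred on all its arrays. Arrays with low Ucp1 lie at high Sqle and low Lss.

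Both SREBP genes were among the 5 measured genes of SREBP control. On the 31 arrays with high Ucp1, 105 relations of the 7 genes with 15 other genes of sterol synthesis and SREBP control were computed, and 27 passed by permutation. Srebf2, which encodes SREBP-2, the main activator of sterol synthesis, correlated with Sqle (r = 0.79, permutation adjusted p = 0.00549, rho = 0.63, adjusted p = 0.0218, r = 0.73 without 2 arrays) and Cyp51 (r = 0.76, adjusted p = 0.00126, rho = 0.76, adjusted p = 0.000787, r = 0.72 without 2), but its r was 0.17 with Lss and 0.11 with Insig1. Srebf1, which encodes the SREBP-1 forms, correlated with Lss (r = 0.83, permutation adjusted p = 0.00240, rho = 0.86, adjusted p = 0.000525, r = 0.85 without 2), Insig1 (r = 0.79, adjusted p = 0.000700, rho = 0.80, adjusted p = 0.00336, r = 0.82 without 2) and Hmgcs1 (r = 0.79, adjusted p = 0.00192, rho = 0.65, adjusted p = 0.0128, r = 0.72 without 2), while its r was 0.20 with Sqle and -0.14 with Cyp51. The difference between these correlations was not tested. Of the other 3 genes of SREBP control, Insig2, a relative of Insig1, correlated negatively with Lss (r = -0.57, permutation adjusted p = 0.00549, rho = -0.51, adjusted p = 0.0310, r = -0.51 without 2), and neither Scap nor Mbtps1, a protease that cuts SREBPs, passed with any of the 7 genes on these arrays.

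Some late enzymes of the pathway also correlated with members. Msmo1, the methylsterol oxidase that follows Cyp51, correlated with Cyp51 (r = 0.71, permutation adjusted p = 0.00549) and less firmly with Sqle (r = 0.69, adjusted p = 0.0219, rho = 0.44, adjusted p = 0.147). Dhcr7, the last reductase before cholesterol, correlated with Lss (r = 0.78, permutation adjusted p = 0.00577), Insig1 (r = 0.71, adjusted p = 0.00276) and Fdps (r = 0.67, adjusted p = 0.00924). Sc5d correlated with Lss (r = 0.72, permutation adjusted p = 0.000700, rho = 0.84) and Insig1 (r = 0.69, adjusted p = 0.000700, rho = 0.80). Lbr ran the other way from Lss (r = -0.73, adjusted p = 0.0241, rho = -0.55, adjusted p = 0.0747).

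The 7 genes were also set against the fixed lists. Of 70 relations with the mean of 10 lists on these 31 arrays, 12 passed by permutation. Insig1 correlated with fatty acid synthesis (r = 0.82, permutation adjusted p = 0.00630, rho = 0.85, adjusted p = 0.00140) and with general adipocyte markers (r = 0.78, adjusted p = 0.0101, rho = 0.70, adjusted p = 0.0103), and Lss likewise (r = 0.68 and 0.61). Both correlated negatively with macrophage markers (Insig1 r = -0.69, permutation adjusted p = 0.0139, rho = -0.74, adjusted p = 0.0103, and Lss r = -0.71, adjusted p = 0.0136, rho = -0.61, adjusted p = 0.0300). Sqle had r = 0.03 with macrophage markers. With fatty acid synthesis r was -0.05 for Sqle and -0.19 for Cyp51, and both ran against skeletal muscle markers (r = -0.51 and -0.45, adjusted p = 0.00420 and 0.0139). The part of cell composition in the correlations among the 7 genes was not tested.

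Between the BAT arrays with low and with high Ucp1, Sqle went the opposite way from Lss and Insig1. Sqle was 8.39 to 10.47 (median 9.04) on the 12 arrays with low Ucp1 and 6.52 to 9.04 (median 7.66) on the 33 with high Ucp1, of which 29 lay below the lowest low-Ucp1 array. Lss was 5.34 to 6.27 (median 5.65) against 5.37 to 7.66 (median 6.91), and Insig1 5.98 to 7.66 (median 6.89) against 6.91 to 9.41 (median 8.39). Cyp51 had medians of 7.24 and 6.63, Hmgcs1 11.51 and 12.03, and Fdps 9.33 and 10.11. On the 11 BAT arrays with mesothelial signal, Insig1 was 5.44 to 7.48 (median 6.32), so low Insig1 was not particular to low Ucp1. Sqle was 6.97 to 9.17 (median 8.23) and Lss 5.37 to 8.33 (median 6.44) on those 11. In the 5 labelled groups that held both kinds (12 arrays of low and 9 of high Ucp1), every low-Ucp1 array was above every high-Ucp1 array for Sqle in 5 of 5 groups and below for Insig1 in 5 of 5, for Lss in 4 of 5 and for Fdps in 4 of 5. For Cyp51 every low-Ucp1 array was above in 3 of 5 groups and for Hmgcs1 below in 2 of 5, with overlap in the others. These kinds were drawn from the data, so the values are a description with no test. The share of all genes that separate as fully is not given here, so the counts show nothing particular to these genes.

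The arrays with low Ucp1 differed in much else. On them the mean of general adipocyte markers was 5.29 to 8.71 against 9.42 to 10.44 with high Ucp1, that of macrophage markers 10.66 to 11.83 against 6.75 to 11.65, and that of 4 proliferation markers 6.65 to 8.98 against 4.37 to 7.02. Over all 56 BAT arrays Sqle correlated with the proliferation markers (r = 0.68, permutation adjusted p = 0.000442, rho = 0.61, adjusted p = 0.00111, r = 0.66 without 2 arrays), but on the 31 arrays with high Ucp1 the value was 0.28 (adjusted p = 0.442, rho = 0.09, adjusted p = 0.816, r = 0.24 without 2).

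Cdkn2a, the tumour suppressor locus that encodes p16 and p19ARF and marks senescent or oncogenically stressed cells, was at most 5.72 on 67 arrays and 9.3 to 10.64 on 5. These were replicates 1 (10.64) and 2 (9.43) of HSLAKO BAT at 12 months, replicates 3 (10.44) and 4 (9.71) of DAKO BAT at 7 months and replicate 1 (9.3) of DAKO BAT at 12 months. All 5 had low Ucp1, and none was labelled 14 months. In that order Sqle read 9, 8.7, 10, 8.96 and 9.39, with ranks of 9, 15, 2, 11 and 4 among the 72 arrays from the highest. The other arrays of these groups read 7.03 and 8.39, 7.23 and 7.58, and 7.37 to 9.09.

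On the same 5 arrays Lss read 5.41, 5.39, 6.19, 5.34 and 5.52, with ranks of 67, 69, 48, 72 and 65. Insig1 read 5.98, 6.17, 6.76, 6.53 and 6.1 (ranks 70, 65, 55, 59 and 67) and Hmgcs1 10.62, 10.51, 11.95, 10.72 and 10.84 (ranks 71, 72, 34, 70 and 67). So 4 of the 5 arrays were near the bottom of the series for Hmgcs1 and Lss while all 5 were in its upper part for Sqle. DAKO BAT at 7 months replicate 3 was the exception, with Cyp51 at 7.72 and Fdps at 10.38 against 6.33 to 7.31 and 8.51 to 9.76 on the other 4. Arrays with low Ucp1 but low Cdkn2a also had high Sqle, up to the 10.47 of HSLAKO BAT at 7 months replicate 1. The 5 arrays were chosen by their Cdkn2a and come from 3 labelled groups, and they are described without a test.

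**Figure D5:**
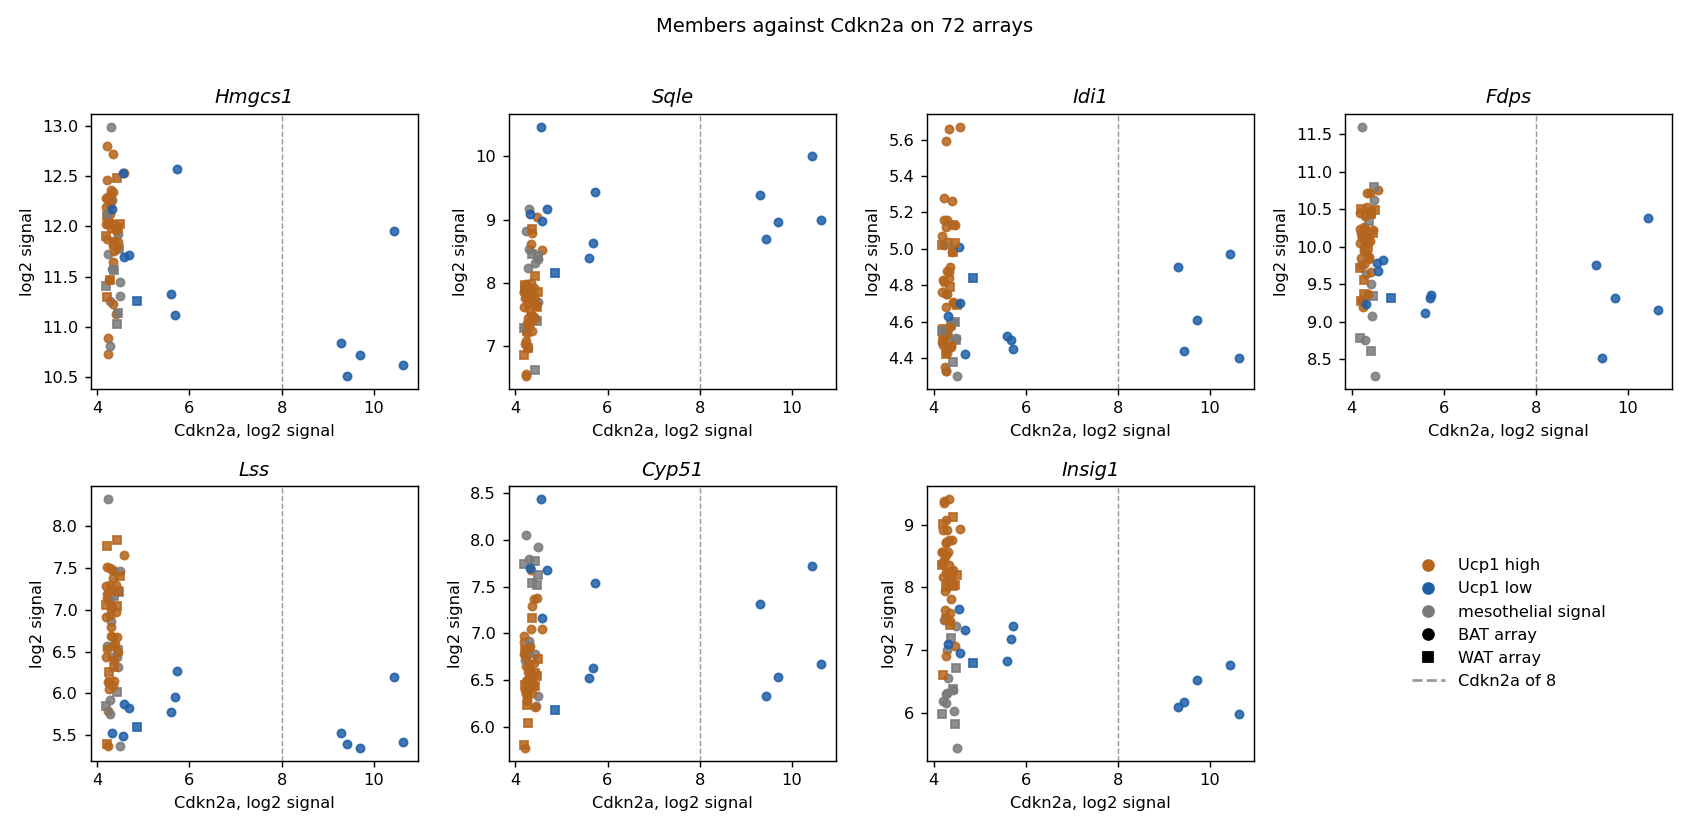
Log2 signal of each of the 7 genes (y axes) against that of Cdkn2a (x axis) on all 72 arrays, coloured by the kind of array, with squares for WAT and a dashed line at 8. The 5 arrays right of the line have Sqle of 8.7 to 10 and Lss of 5.34 to 6.19.

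Over the 56 BAT arrays, the genes most like the mean of the 7 after removal of group means, among 12258 ranked, were Mindy2 (r = 0.75), Dhcr7 (0.75), Rnft2 (0.72), Otud6b (0.71), Parp1 (0.71), Pus10 (0.71), Rab21 (0.70), Dhx32 (0.70), Hoxa13 (0.70) and Rars2 (0.69). On the 31 arrays with high Ucp1 their r was 0.41 (Hoxa13) to 0.75 (Mindy2). Dhcr7 was the single one of the 10 in the lists of sterol metabolism. These ranks share arrays, normalization and the mix of cells, and carry no test.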

How the data were processed

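RNA of 72 adipose samples was hybridised to Illumina MouseRef-8 v2.0 BeadChips by the authors, who exported signals with BeadStudio. The deposited table holds non-normalized intensity values and a detection p-value for each of 25697 probes per array, and a second deposited table holds the authors' normalized intensity values (142.6 to 19393) of the same arrays, used as an alternative. Median raw signal was 94.69 to 160.6 per array and 44.8% to 54.8% of probes were detected. The number of arrays limits the precision. No 2 arrays were identical. The chips' slides are not given in the sources used here.

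Signals went through limma's neqc, which subtracts background by normexp from the detection p-values and then quantile normalizes (limma 3.58.1, R 4.3.3, statmod 1.5.0), and were used as log2 values. Tests covered the 18083 probes that reached a detection p below 0.05 in 3 or more samples. Of all probes, 23978 had 1 symbol from the platform annotation, updated to RefSeq by Entrez identifier, and 1719 had none. A gene was read from its tested probe with the highest mean.

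One limma model was fitted to all 17 labelled groups, with Benjamini-Hochberg adjustment over all probes and calls at an adjusted p under 0.01, the threshold of the study's methods. The fit was tested on simulated data. Replicates are separate mice by their labels, and 13 mice gave both BAT and WAT. Correlations used 100000 permutations within groups, whose smallest p is 1.00e-05, adjusted over the relations named. Same-numbered arrays of different genotypes or ages come from different mice and share only a number. Between BAT and WAT of a genotype the mouse numbers in the labels give the pairs, only some of them same-numbered, and the mouse as a random block was an alternative.

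The members and lists were chosen with earlier results of these data known. Named genes are the members, list genes that were called, the 10 genes most like the members' mean, and the check genes. Alternatives were the normalization, filter, probe, threshold, array weights, blocks, groups in the fit, and leaving out arrays.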

Additional observations from a re-analysis of the deposited data

Results flagged for a closer look

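Across 112 sets of 4 or 5 arrays, 5 single values stood apart from the rest of their labelled group by more than Dixon's limit, and chance flags about 1 in 20 such sets. Hmgcs1 was 11.13 on replicate 1 of control BAT at 3 months against 12.19 to 12.53 on the other 4. It was 11.23 on replicate 2 of HSLAKO BAT at 3 months against 11.79 to 11.84, and 11.30 on replicate 1 of HSLAKO WAT against 11.90 to 12.02. Sqle was 8.82 on replicate 2 of control BAT at 12 months against 7.65 to 7.83, and the same array had the highest Fdps (11.6) and Lss (8.33) of the series. Cyp51 was 6.58 on replicate 5 of ATGLAKO WAT, the 1 array of that group without mesothelial signal, against 7.54 to 7.78.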

How the results depend on the processing

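Over 52 results, 784 of 832 values under other settings and 781 of 805 values with 1 array left out kept their direction and their side of the threshold. In 19 of the 28 comparisons with 0 members called, the count stayed 0 under every setting other than a threshold of 0.05. The count of 1 in control BAT at 12 against 3 months became 0 with the authors' normalized values, with scaling to a common median, with the replicate number as a block and with either of the other probes, 2 at a threshold of 0.05 and 3 with array weights. Without 1 array it ranged from 0 to 2: 0 without replicate 3, 4 or 5 of the 3-month or replicate 1, 3 or 4 of the 12-month group, and 2 without replicate 2 of the latter. Insig1 itself ranged from -2.56 to -1.88 without 1 array and was -1.06 (limma adjusted p = 0.0121) with the authors' values, -1.60 (adjusted p = 0.0146) with a common median and -2.15 with the block, where it just missed the threshold. The block changed no other count of members, and the mouse as a random block changed none. Deviations of same-numbered arrays had r of -0.47 to 0.59 between knockout and control groups, and all pairs exceeded 0.1 only for HSLAKO against control WAT. With array weights the count was 1 in place of 0 for ATGLAKO against control BAT at 12 months, DAKO against ATGLAKO BAT at 12 months, DAKO BAT at 14 against 12 months, ATGLAKO against control WAT, control BAT against WAT, and 12 against 3 months in HSLAKO and in DAKO. It was 2 for ATGLAKO BAT against WAT, which became 1 with a common median. HSLAKO against control BAT at 3 months gave 1 with only those groups fitted. The causes were not tested.

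Reversals came from leaving out kinds of array, mostly settings chosen after seeing the data. Insig1 in ATGLAKO BAT against WAT was -0.70 without mesothelial arrays and -0.70 with high-Ucp1 arrays alone, where Sqle was -0.09 in DAKO against ATGLAKO at 12 months and -0.37 in DAKO at 12 against 3 months. Each of these leaves 1 array in ATGLAKO WAT or in DAKO BAT at 12 months, assumed to vary like the other groups. The r of Sqle with Insig1 became 0.16 (high Ucp1) and 0.47 (mesothelial), and that of Fdps with Insig1 -0.01 (low Ucp1). The 14 correlated pairs became 0 with low Ucp1 and 3 with mesothelial signal, and 11 to 14 without 1 array.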
